A study of Mus musculus with 2 samples.

Results

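The genes described here are 27 genes of the inhibitory synapses that use GABA or glycine. They were chosen by name and found on the array through the gene name of each non-control probe. They comprise 3 genes of GABA synthesis and breakdown, 3 transporters, 11 subunits of the GABA-A receptor, 2 of the GABA-B receptor, 4 of the glycine receptor, 2 scaffold genes and 2 chloride transporters. All 27 were among the 37074 gene names of the array, with 61 of its 56605 probes. Of these, 24 genes were measured on both arrays, among 23872 genes measured in all. Total RNA came from the olfactory bulb of 1 control mouse, held under standard odor conditions, and 1 mouse from odor-enriched conditions, and each was labelled with Cy3 and hybridised to 1 single-colour Agilent mouse array. The labels name neurons of the bulb as tissue, the bulb as source and no sorting step, and the sources used here do not give strain, age, sex or length of the enrichment. With 1 array per group there was no replicate, so no test between the conditions could be made, and every difference below compares these 2 libraries.

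GABA is the main inhibitory transmitter of the brain, and glycine shares that task in parts of it. Vesicles release the transmitter onto chloride channels assembled from several subunits, the GABA-A and glycine receptors, while the GABA-B receptor signals through G proteins. In the olfactory bulb the granule cells and many periglomerular cells are inhibitory, and they act on mitral and tufted cells, which carry odor signals to the cortex.

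A level is the log2 processed signal minus the 75th percentile of all probes of that array, averaged over those of a gene's probes that both arrays measured well above background, and a difference is odor enriched minus control. The arrays held 73.7% (control) and 67.6% (odor enriched) of spots well above background, and no spot was saturated. Repeat spots of 300 probes gave a pooled SD of 0.05 for a difference, while different probes of a gene gave 0.63 over 8234 genes and 0.69 over the 14 members with several measured probes. Neither covers the spread between mice. The median over all genes was 0.002. When the arrays were set equal on their E1A spike-in probes instead, that median moved by -1.76. All 24 members then stood at least 2-fold lower, as did 83.6% of all genes, so each sign below is relative to the array's own signal distribution. Against the tissue label, 12 of 12 pan-neuronal markers were measured, and so were 12 of 12 astrocyte, 10 of 10 endothelial and 8 of 8 olfactory ensheathing cell markers. The lists differed between the libraries, with medians of -0.25 for pan-neuronal, -0.26 for granule cell, -1.58 for olfactory sensory neuron, -1.49 for ensheathing cell, 1.87 for endothelial and 4.17 for T and NK cell markers. Their part in the members' differences was not tested.

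Relative to each array's own signal, most of the inhibitory synapse genes differed by less than 2-fold between the bulbs, as did most measured genes. Of the 24 measured members 0 passed 2-fold upward, as 11.5% of all genes did, and 2 passed it downward, as 5.52% of all genes did. The 2 were Slc6a13, a GABA transporter, and Gabrd, the delta subunit of the GABA-A receptor. The members' median difference was -0.06, with 10 above 0 and 14 below, and the range ran from -1.44 to 0.71. A difference larger than the pooled SD of 0.63 between probes of a gene was seen for 4 of 24 members, namely Slc6a13, Gabrg3, Gabrd and Slc12a5, and for 34.5% of all genes. Of these, Gabrg3 at 0.71 lay within the SD of 1.39 over its own 4 probes, and the others have 1 probe each and so no such spread of their own. In whole tissue, fewer cells of a type and less RNA per cell cannot be told apart.

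**Figure D1:**
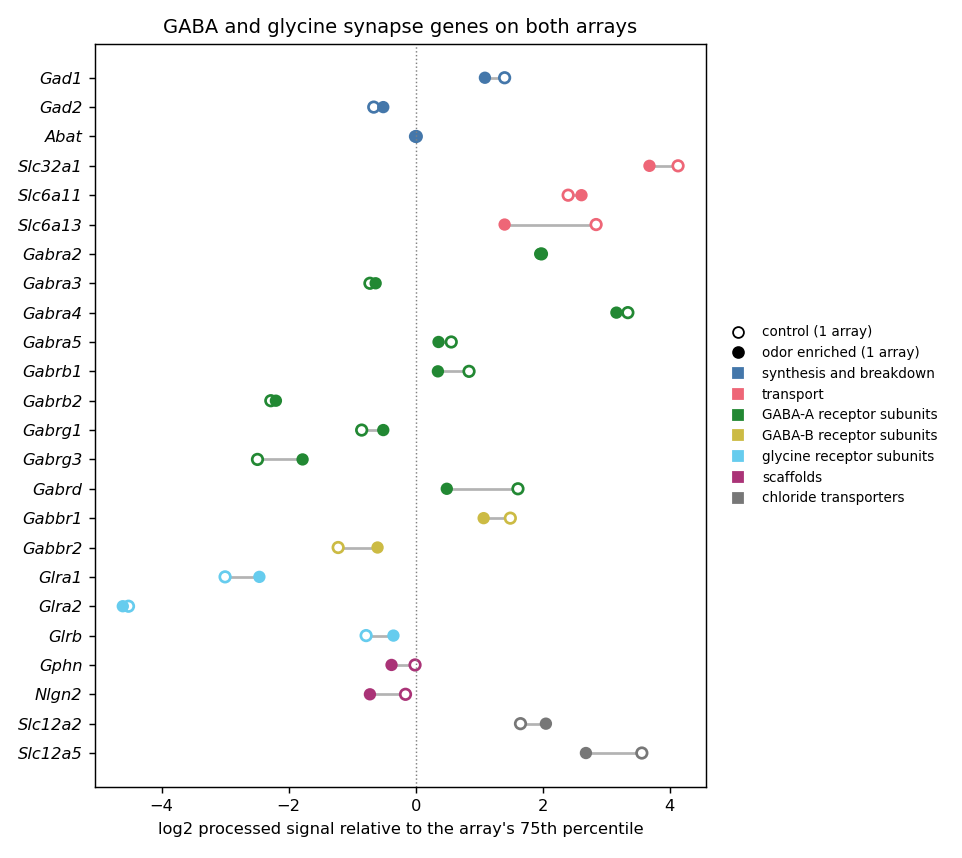
Level of each measured member on the control array (open circles) and the odor-enriched array (filled circles), in log2 units above or below that array's 75th percentile, coloured by role, with 1 array per group and so no error bar. The widest gaps are those of Slc6a13, from 2.84 to 1.40, and Gabrd, from 1.61 to 0.49; levels of different genes come from different probes and are not comparable with each other. With E1A spike-in scaling every member lies lower on the odor-enriched array.

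Differences depended on signal across the arrays, and the members lay mostly among the brighter genes. When all measured genes were split by mean level into 4 groups of equal size, a split chosen after the values were seen, the median difference was 0.25 in the dimmest group, then 0.05, -0.08 and -0.18 in the brightest. From dim to bright these groups held 2, 3, 9 and 10 members. The 10 in the brightest group had a median of -0.37, with 8 below 0 and 7 below the median of that group. Both members at least 2-fold lower were among these 10, where 6.5% of all genes were at least 2-fold lower.

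**Figure D2:**
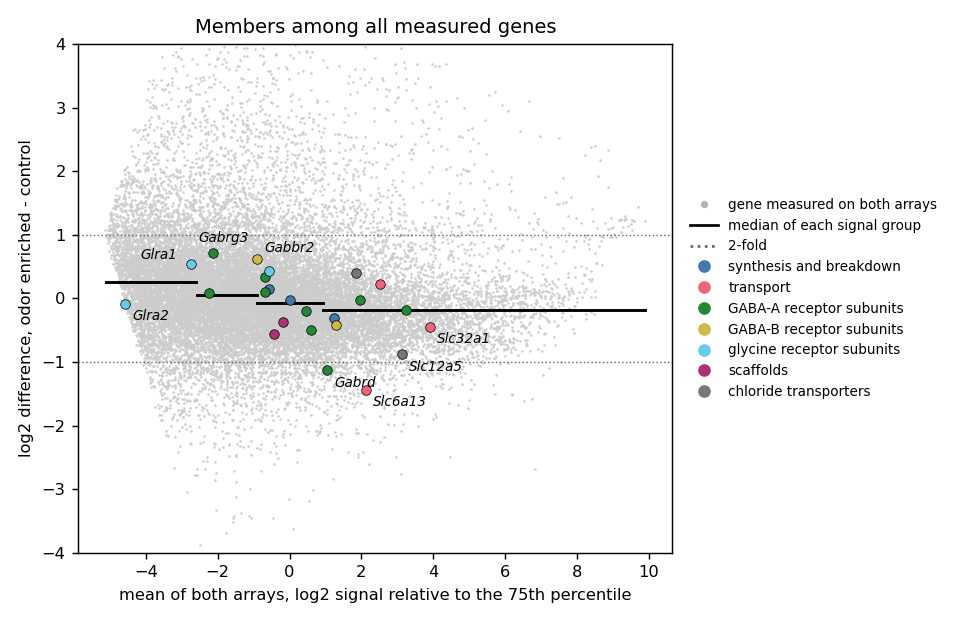
Difference (odor enriched minus control, log2) against the mean log2 level of both arrays for 23872 genes (grey) and 24 members (coloured by role), with the median of each of 4 signal groups as a black line and 2-fold as dotted lines; 70 grey genes lie beyond the limits of 4 on the vertical axis. Slc6a13 and Gabrd are the members below the lower 2-fold line, and no member is above the upper one. With cyclic loess or the series matrix values only Slc6a13 is below the lower line, and with the latter Gabrg3 is above the upper one. With E1A spike-in scaling all members are below the lower line, as are 83.6% of all genes.

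The genes that make and break down GABA all differed by less than the pooled SD between probes. Gad1, the glutamate decarboxylase of the cell body that makes most of the brain's GABA, had levels of 1.40 (control) and 1.09 (odor enriched, in this order throughout). Its 3 measured probes differed by -0.58, -0.33 and -0.01, so none was above 0, and its mean of -0.31 passed 0 with the series matrix values (0.02). Gad2, the decarboxylase of the nerve terminal, had levels of -0.66 and -0.51, and its 3 probes disagreed, at -0.35, 0.37 and 0.40. Abat, the transaminase that degrades GABA, had levels of 0.01 and -0.01, and its 3 measured probes stood at -0.34, -0.07 and 0.32. The signs of Gad2 and Abat changed between scalings.

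The transporters held the largest difference of all members. Slc32a1, which loads GABA and glycine into vesicles, had levels of 4.13 and 3.68, a difference of -0.45 from its single probe. Slc6a11, a GABA uptake transporter of astrocytes, had levels of 2.40 and 2.61, a difference of 0.22. Slc6a13, a GABA transporter best known from the meninges, the blood vessels and peripheral organs, had levels of 2.84 and 1.40. That is 2.71-fold lower, or -1.44, and its single probe read a processed signal of 1785 and 531. The difference ran from -1.61 to -1.11 over the scalings and background corrections other than E1A, and the gap between the differences of Slc6a13 and Slc6a11 was -1.65. Because the value rests on 1 probe, the second part of it is shown here, from base 31 to base 60, with its longest run of A and G in capitals.
Slc6a13 probe: taacatcccattgaggcagcttGGGAAGcc
Per the files it lies at chr6:121287597-121287656 on the plus strand (mm9), and its place in the transcript (exon or UTR) was not analysed here. The spots around it had a median difference of 0.05. Of 12 markers of meningeal fibroblasts 3 passed 2-fold downward (the most different were Fmod at -2.08 and Igf2 at -1.32), as 5.52% of all genes did, and 4 stood above 0, up to 0.86 for Lum and 0.82 for Col1a1. Their median was -0.65 and their summed level 5.65 and 5.08. Of 6 choroid plexus markers 5 were measured, with a summed level of 4.24 and 2.47, mostly from Aqp1 (levels of 4.10 and 2.29). Of the 5 measured, 3 were at least 2-fold lower, against 5.52% of all genes, led by Kcnj13 at -1.92 and Aqp1 at -1.81. The other 2, Folr1 and Kl, both stood at 0.05. For astrocytes the marker median was -0.47 and 2 of 12 passed 2-fold downward, against the same 5.52% of all genes. The endothelial markers went the other way, with 10 of 10 above 0 and a summed level of 5.55 and 7.02. At least 2-fold higher were 8 of them, against 11.5% of all genes. The part of these cells in the values of Slc6a13 and Slc6a11 was not tested.

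Among the GABA-A receptor subunits 9 of 11 were measured, 4 with a difference above 0 and 5 below, and 1 of them, Gabrd, was at least 2-fold lower. The alpha subunits, which shape the receptor's affinity for GABA and its drug binding, differed little: Gabra3 had levels of -0.72 and -0.63, Gabra4 of 3.34 and 3.16, and Gabra5 of 0.56 and 0.36. Gabra2, another alpha subunit, had levels of 1.98 and 1.96, a mean over probes that disagreed widely and are shown further on. Of the beta subunits, which hold part of the GABA binding site, Gabrb1 had levels of 0.84 and 0.35 and Gabrb2 of -2.28 and -2.20. Both gamma subunit genes were above 0 in their difference, with levels of -0.85 and -0.51 for Gabrg1 and of -2.49 and -1.78 for Gabrg3. For Gabrg1 both measured probes were above 0, at 0.13 and 0.54, and its sign held under all scalings except E1A, while Gabrg3 rested on a single probe described further on.

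Gabrd encodes the delta subunit, which replaces gamma in receptors that lie outside the synapse and give a steady inhibition. Its levels of 1.61 and 0.49 were 2.19-fold apart, a difference of -1.13. The processed signal of its single probe was 765 and 282. The difference ran from -1.30 with median centring to -0.80 with the series matrix values, so it was under 2-fold with the latter, and under 2-fold with cyclic loess. The second part of the probe, bases 31 to 60, is shown because the value rests on it alone, with its longest run of A and G in capitals.
Gabrd probe: GAGAAAAAcaagtgggggtggatgaccact
The files place 19 bases of this probe at chr4:154759071-154759089 on the minus strand (mm9). The spots around it had a median difference of 0.30, so its neighbourhood on the array was on the higher side. For the granule cells of the bulb the marker median was -0.26 and the summed level was 6.37 and 6.01. Of these markers 0 of 10 passed 2-fold downward, against 5.52% of all genes. The part of granule cells in the Gabrd value was not tested.

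Gabre and Gabrq, the epsilon and theta subunits, were not well above background on either array. Neither was Glra3, a glycine receptor alpha subunit. Their 5 probes, 1 for Gabre and 2 each for Gabrq and Glra3, gave processed signals between 0.996 and 4.91 on the control array and between 1.61 and 2.4 on the other, so they give no fold.

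The subunits of the GABA-B receptor, which works only as a pair of both, stood on opposite sides of 0. Gabbr1, which binds GABA, had levels of 1.49 and 1.07, a difference of -0.42, with measured probes at -0.79, -0.78 and 0.29. Gabbr2, which couples to the G protein, had levels of -1.22 and -0.60, a difference of 0.62 from 1 probe. The gap between these differences was -1.05, and it ran from -1.40 to -0.71 over 17 other settings, E1A among them, since a shift of a whole array leaves it as it is. Gabbr1 did not pass 0 under any scaling (-0.60 to -0.09), nor did Gabbr2 (0.45 to 0.95), E1A apart.

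For the glycine receptor, 3 of 4 members were measured, all of them with differences under 2-fold. Glrb, the beta subunit that ties the receptor to its scaffold, had levels of -0.78 and -0.35, and its probes stood at 0.37 and 0.49, the narrowest range over all measured probes of a member with several. Glra1, the alpha subunit of adult receptors, had levels of -3.00 and -2.46 from 1 of its 2 probes, the other being below background. Glra2, the alpha subunit of developing neurons, stood near the background with levels of -4.52 and -4.61, and its signal of 10.9 and 8.24 gives little weight to the difference of -0.09.

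Both scaffold genes had differences below 0, and in each only 1 of 2 probes was clearly below it. Gphn encodes gephyrin, the lattice protein under glycine receptors and many GABA-A receptors, and had levels of -0.01 and -0.38. Its probe to the curated RefSeq transcript differed by -0.04, whereas the probe at -0.70 lies on the opposite strand of the genome in the files and so need not measure the same RNA. Nlgn2 encodes neuroligin 2, an adhesion protein of inhibitory synapses, and had levels of -0.16 and -0.72. Its bright probe went from a signal of 4401 to 1627, or -1.13, while the dim probe to the same transcript went from 11.4 to 9.25, or 0.00 on the normalised scale. The bright one is shown from base 31 to base 60, with its longest run of A and G in capitals.
Nlgn2 probe: tggcaaaagatGAAGAGAAtattgtaaata
It lies at chr11:69636641-69636700 on the minus strand (mm9). The signs of both gene means held under the scalings tried, at -0.54 to -0.04 for Gphn and -0.73 to -0.23 for Nlgn2. The Gphn mean includes the probe on the opposite strand, and its curated probe alone was not followed over these scalings.

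The chloride transporters stood apart in opposite directions. Slc12a5 (KCC2), which exports chloride from mature neurons and so makes GABA inhibitory, had levels of 3.56 and 2.68, or -0.88, and a signal of 2959 and 1292. Slc12a2 (NKCC1), which imports chloride, had levels of 1.65 and 2.05, or 0.40, and a signal of 784 and 832. The gap between these differences was -1.28, and it lay between -1.33 and -1.27 over 17 other settings. Most of these could not move it: a shift of a whole array leaves it as it is. So does a choice among probes, since each gene has only 1. Neither gene was 2-fold different, although Slc12a5 reached -1.06 with median centring, and each rests on 1 probe. The spots around the Slc12a2 probe had a median difference of 0.61, the highest around any member probe, against 0.06 around that of Slc12a5, and the part of this in the gap was not tested.

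How far the probes of a gene disagreed matters for the receptor subunits above all. Of 47 member probes with a value on each array, 2 passed 2-fold upward, as 11.6% of all probes did, and 3 passed it downward, as 6.51% did. A further 12 probes were above background on neither array and 2 on the control array only. The 2 higher probes belong to Gabra2, at 1.29, and to Gabrg3, at 2.72, and in both genes the other measured probes stood between -0.61 and 0.55.

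The Gabra2 probe at 1.29 overlaps the probe at -0.61 by 29 bases on the minus strand of chromosome 5, so both read the same stretch of sequence in part. Bases 31 to 60 of each are shown, which lie outside the overlap in the first probe and hold all of it in the second. Capitals mark the longest run of A and G in the first and the 29 shared bases in the second.
Gabra2 probe at 1.29, chr5:71352275-71352334: aaaatttAGAAGAAGAAGGAGAAGAAGAAG
Gabra2 probe at -0.61, chr5:71352306-71352365: tTCAGCTCACTTCAATCATTGGAAACTACC
The first went from a signal of 2714 to 5335 and the second from 1121 to 594, a gap of 1.89 log2 units. Among 149 pairs of neighbouring probes of 1 gene that share 20 to 59 bases, the median gap was 0.10 and the 90th percentile 0.36. Only 2 pairs (1.34%) were at least as far apart, the Gabra2 pair included. The other measured probes of Gabra2 stood at -0.51 and -0.25, so 3 of 4 probes were lower. With the brightest probe alone Gabra2 would stand at 1.29, and with curated RefSeq probes alone at -0.61.

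The Gabrg3 probe at 2.72 went from a signal of 50.1 to 266, whereas the probe to the curated RefSeq transcript went from 34.4 to 40.6. Both are shown over 30 bases, with the longest run of A and G (the first where runs tie) in capitals.
Gabrg3 probe at 2.72, bases 22 to 51, chr7:64434682-64434741: tgggggaaatAGAGAAGAGAcaaccagagg
Gabrg3 probe at 0.55, bases 31 to 60, chr7:63979783-63979842: gtctattGGGttggatacctgtatctttaa
Both lie on the minus strand (mm9). The first holds 75% A and G and the second 35%. The remaining Gabrg3 probes stood at -0.40 and -0.02. Without probes of 65% or more A and G the gene stood at 0.04, and with its 3′-most probe alone at -0.40.

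Because both higher probes are rich in A and G, the share of these bases was compared over all probes, a comparison chosen after the values were seen. At least 2-fold higher were 6.27% of all probes with under 35% A and G, 8.76% from 35% to 45%, 10.3% from 45% to 55%, 13.4% from 55% to 65% and 26.6% from 65% up. In the same order 3.92%, 6.6%, 7.27%, 5.94% and 4.55% were at least 2-fold lower. The median differences were 0.01, -0.02, -0.05, 0.01 and 0.22, so the median stood clearly above 0 only from 65% up. The 65% limit is the share of the Gabra2 probe itself. Of the member probes, 3 lie in the last group, those of Gabrg3, Gabra2 and Gabbr1, and the last stood at 0.29. The heptamer GAAGAAG, read off the Gabra2 probe and searched on the probe's own strand, was found in 604 probes (1.65%), of which 42.2% were at least 2-fold higher, against 11.1% of those without it. It was in 2 member probes, that of Gabra2 at 1.29 and that of Gabbr1 at -0.79, which stood on opposite sides of 0. Across the 47 member probes the A and G share and the difference had a Pearson r of 0.42 and a Spearman rho of 0.30. Across all 36639 probes these were 0.10 and 0.06. The 47 include the 2 higher probes that prompted the comparison, so their values are no independent support for a link. The points share both libraries, and probes of a gene share its RNA.

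**Figure D3:**
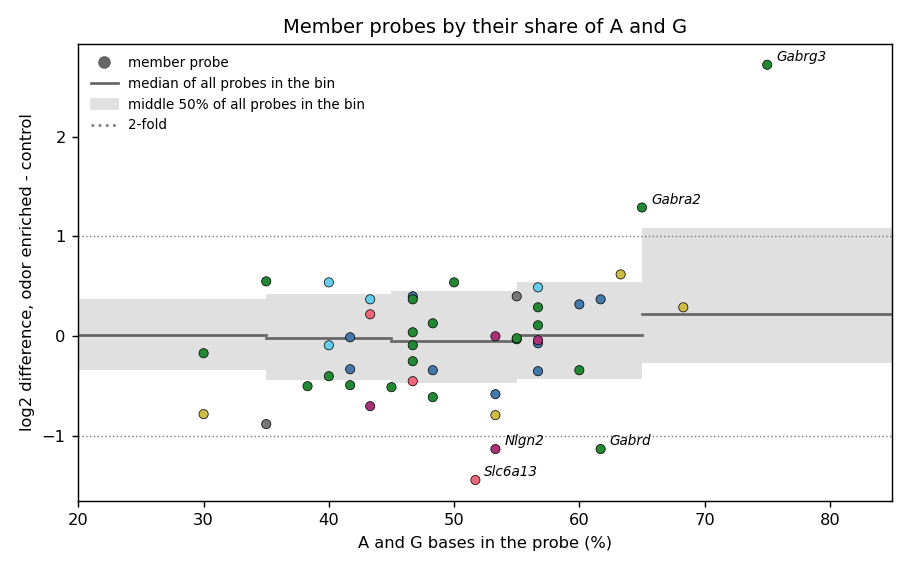
Difference (odor enriched minus control, log2) of 47 member probes against their percentage of A and G, coloured by role as in the plot of levels, over the median and the middle 50% of all probes in each bin (grey), with 2-fold as dotted lines. The probes of Gabrg3 at 2.72 and Gabra2 at 1.29 lie at 75% and 65%, and the 3 probes at least 2-fold lower, of Slc6a13, Gabrd and Nlgn2, lie below 65%; with E1A spike-in scaling every point but that of Gabrg3 at the top would lie below 0.

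The kind of transcript a probe was designed to was compared as well, also after the values were seen. The 33 member probes to curated RefSeq transcripts had a median of -0.07 with 0 higher and 3 lower by 2-fold, where 9.69% and 7.88% of all such probes were. The 14 to other transcripts had a median of -0.03 with 2 higher and 0 lower, where 14.8% and 4.2% were.

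In the members with several probes, the probe nearest the 3′ end stood below the mean of the others. There were 13 members whose measured probes, at least 2 of them, lie on 1 strand in the files. In 13 of 13 the 3′-most probe was below the mean of the gene's other probes, and over all genes this held for 60.3%. Probe by probe, 19 of the 22 other probes stood above the 3′-most one, the exceptions being 1 each in Gabra2, Gabbr1 and Gabrb2, and over all genes 7544 of 12530 did. The median gap was -0.46 for the members and -0.16 for all 8090 such genes. The gap was -1.49 in Gabrg3, -1.13 in Nlgn2, -0.73 in Gad2, -0.66 in Gabra2 and -0.61 in Gabra5, and it was smallest in Glrb at -0.12 and Gabrb2 at -0.06. After quantile normalisation or cyclic loess it held in 11 of 13 members, Gabrb2 and Glrb being the exceptions, while the shares over all genes were 54.5% and 54.4%. With curated RefSeq probes alone it held in 8 of 8, where 56.9% of all genes showed it. Without probes of 65% or more A and G it held in 12 of 13, Gabbr1 being the exception, and in 60% of all genes. Among the related genes listed below it held in 17 of 26, among pan-neuronal markers in 6 of 10 and among astrocyte markers in 5 of 10, the last with a median gap of 0.10. The pattern was noticed in the members first and counted afterwards, so the 13 of 13 is no independent support for it. In 10 of the 13 the 3′-most probe was also the brightest, and over all genes the share was 60.2% where it was the brightest and 60.5% where it was not. The labelling used an oligo-dT primer, per the labels' protocol, and the part of RNA quality was not tested. With the 3′-most probe alone the members' median was -0.36, against -0.05 for all genes, and Nlgn2 joined Slc6a13 and Gabrd among those at least 2-fold lower.

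**Figure D4:**
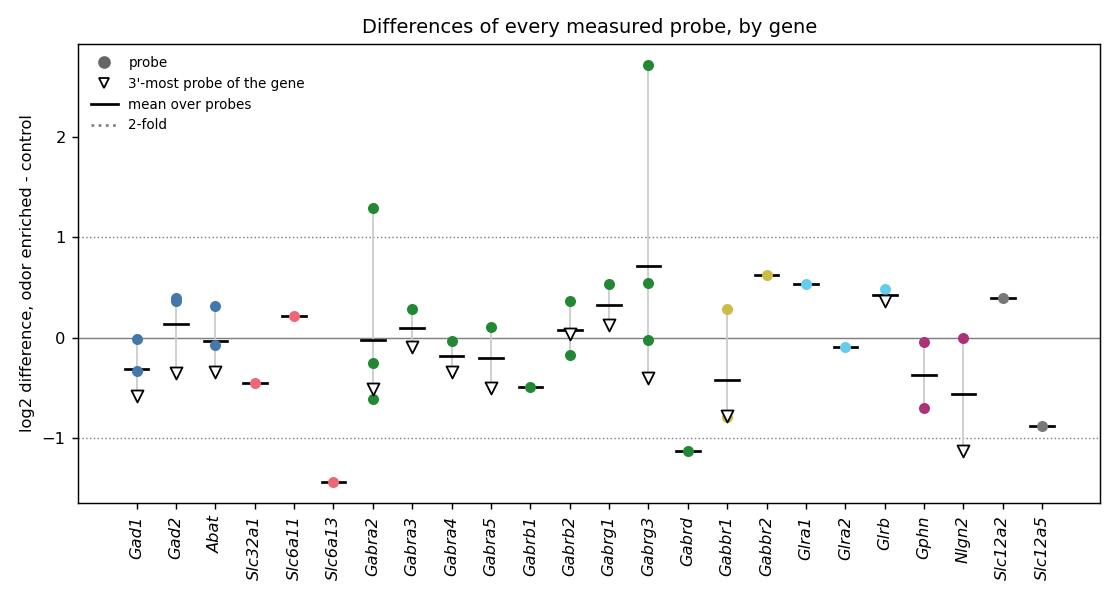
Difference (odor enriched minus control, log2) of every measured probe of each member, coloured by role as in the plot of levels, with the 3′-most probe of 13 members as an open triangle, the mean over probes as a black bar and 2-fold as dotted lines. In all 13 the triangle is below the mean of the gene's other probes (in 11 after quantile normalisation or cyclic loess), and the probes at 1.29 in Gabra2 and 2.72 in Gabrg3 stand apart from the rest; with E1A spike-in scaling all gene means lie below 0.

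Several subunit genes lie in clusters in the genome. The members of the cluster on chromosome 5 stood, in order of position, at 0.33 for Gabrg1, -0.02 for Gabra2, -0.18 for Gabra4 and -0.49 for Gabrb1, the last on the opposite strand. In the cluster on chromosome 7, Gabrg3 stood at 0.71 and Gabra5 at -0.20. On the X chromosome Gabra3 stood at 0.10, and its neighbours Gabre and Gabrq were not above background. The signs of Gabra2, Gabra4, Gabra5 and Gabra3 each changed under at least 1 scaling other than E1A.

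Among 51 further genes of the pathway, from lists drawn up with earlier results of these data known, 46 were measured, 1 was at least 2-fold higher and 6 were at least 2-fold lower, against 11.5% and 5.52% of all genes, with a median of -0.12. The higher one was Kctd8, an auxiliary subunit of the GABA-B receptor, at 2.53, with levels of -3.28 and -0.75. Another of these subunits, Kctd12, was lower at -1.18, and the median of the 4 auxiliary subunits was 0.24. Slc6a12, a related transporter of betaine and GABA, was lower at -1.57, and the list of other transporters and enzymes it belongs to had a median of -0.55 over 7 measured genes. Of 8 partners of the scaffolds 2 were lower, Shisa7, an auxiliary protein of GABA-A receptors, at -1.38 and Iqsec3, a gephyrin partner, at -1.26, and their median was -0.59. Of 11 genes of receptor trafficking 2 were lower, Trak2, a motor adaptor, at -1.23 and Gabarapl1, of the GABA-A receptor-associated protein family, at -1.02, with a median of -0.11. None of 3 measured chloride transporter kinases (median 0.20) and 7 transcription factors of GABA neurons (median 0.09) was 2-fold different. The values of Kctd8, Slc6a12, Shisa7 and Trak2 rest on 1 measured probe each.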

How the data were processed

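Per the file headers, Agilent Feature Extraction 11.5.1.1 made the deposited scanner files, whose processed signal is an intensity after background subtraction within the array. The deposited series matrix holds log2 values whose offset is of unstated origin, and served as an alternative. Its medians were -9.48 (control) and -8.98 (odor enriched).

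Control spots and outlier spots (122 and 183) were left out, log2 signals were averaged per probe, and each array's 75th percentile was subtracted (7.966 and 7.655). Probes that both arrays measured well above background were averaged per gene, and genes were counted at 2-fold. Every member is named. Related genes are named where 2-fold different. Some related genes are not reported here. The members and lists were chosen with earlier results of these data known. After the values were seen, 7 looks at signal or probe features were added: 4 signal groups, curated against other transcripts, the A and G share, its 65% limit, the heptamer, overlapping probes and the 3′-most probe. All 7 are given. Probe sequences and mm9 coordinates are those of the deposited files. The symbols of all 27 members matched the RefSeq gene table of GRCm38.p6, used for names only. The steps were run in Python 3.11.15 (with pandas 2.3.3, numpy 2.4.6 and matplotlib 3.10.9) and, for normalisation only, limma 3.58.1 under R 4.3.3. The averaging per probe and gene, the main scaling and the differences were tested on simulated data. The limma steps, the other settings and the looks at probe features were not. The number of arrays, 1 per group, limits the precision.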

Additional observations from a re-analysis of the deposited data

How the results depend on the processing

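The members' median difference, -0.06, lay between -0.36 (3′-most probe alone) and 0.27 (series matrix values) over 16 settings without E1A scaling. With E1A scaling it was -1.82, and all 24 members were at least 2-fold lower, as were 83.6% of all genes. That scaling was first computed as the mean over 8 spike-in probes, which gave a median of -2.18, 24 members lower and 90.2% of all genes. Because 1 of these probes differed by 4.42 and the lowest by 1.23 before scaling, the median replaced the mean after its result was seen, and both are given. The count of members at least 2-fold different, 2, was 1 with cyclic loess (all genes 11.7% higher and 4.65% lower) and 5 with each gene's brightest probe (Gabra2 and Gabrg3 higher, Slc6a13, Gabrd and Nlgn2 lower; all genes 12.1% and 6.65%). It was 5 at a 1.5-fold threshold (all genes 21.2% and 16.3%) and 0 at a 3-fold threshold (5.39% and 1.38%). It was 3 with median centring (Slc12a5 added) and with the 3′-most probe alone (Nlgn2 added, all genes 11.7% higher and 7.04% lower). With no filter it was also 3 (all genes 25.3% higher and 6.19% lower). There Glra3 was added as higher, from probes not well above background on either array. With the series matrix values it was 2, Gabrg3 at 1.04 and Slc6a13, while Gabrd stood at -0.80, and the all-gene median was 0.33 with 18.7% of genes higher and 2.44% lower. With median centring the all-gene median was -0.17, with 8.95% higher and 8.63% lower. The count of members whose 3′-most probe was below their others, 13, was 8 with curated RefSeq probes alone, since only 8 members then had several probes.

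Over the 16 settings without E1A scaling, 8 members kept a difference below 0 (Slc32a1, Slc6a13, Gabrb1, Gabrd, Gabbr1, Gphn, Nlgn2, Slc12a5), 6 kept one above 0 (Slc6a11, Gabrg1, Gabbr2, Glra1, Glrb, Slc12a2) and 10 changed sign. The cause was not tested. The same count was not made over all genes, so this split cannot be set against theirs. Settings that choose among a gene's measured probes cannot move a member with 1 measured probe. A kept sign therefore says less for such members than for those with several. The mean of Gphn includes its probe on the opposite strand. The curated RefSeq, A and G, 3′-most probe and E1A mean settings were chosen after seeing the data. No paired analysis was possible because each group has 1 array. For the same reason no replicate was left out, and the planned bound for members seen on 1 array only gave no value, since there was none. Dim probes limit Glra2, Glra1 and Gabrb2 most.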
